A study of Mus musculus with 7 samples.

Results

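The TNF superfamily joins trimeric ligands, most of them made as membrane proteins and some of them shed, to receptors with cysteine-rich outer domains. Receptors with a death domain can recruit caspase-activating adaptors, receptors without one bind TRAF adaptors and switch on NF-kB, and decoy receptors bind a ligand without passing on the full signal. Microglia, the resident macrophages of the brain, are a known source of TNF and carry both of its receptors. The genes described here are the rows of the deposited count table whose symbol begins with Tnfrsf or Tnfsf, plus Cd40, Fas and Ltbr. There were 27 such genes among 14594, of which 19 encode receptors and 8 encode ligands. A filter on low counts left 22 of the 27 for testing, 15 receptors and 7 ligands, and the other 5 are given as counts.

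RNA was sequenced from cortical microglia of C57BL/6 mice about 12 weeks old. Every animal carried Cx3Cr1GFP/+, a green reporter in the fractalkine receptor locus of microglia and related myeloid cells, together with Hoxb8IRES-Cre/+ and the Cre-dependent reporter ROSA26CAG-LSL-tdTomato/+. Cells with both colours, which descend from precursors that expressed Hoxb8, are called Hoxb8 microglia (libraries 6, 14 and 22, n = 3). The name non-Hoxb8 microglia stands for green cells that lack tdTomato (libraries 5, 13, 21 and 25, n = 4). All animals thus have a single working copy of Cx3cr1, and tdTomato records past rather than present Cre activity. Per the labels, 4 animals gave the 7 libraries, without a statement of which libraries share one. P-values then measure the spread between these libraries, which may not all be independent.

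Total counts lay between 5915261 and 7741934 per library. Together, 9 markers of homeostatic microglia, P2ry12 and Tmem119 among them, summed to between 32499 and 37454 CPM in Hoxb8 libraries and between 28628 and 38563 CPM in non-Hoxb8 libraries. CPM are read counts scaled to a common library size with TMM factors. Libraries 14 and 13 stood apart in inflammatory RNA, with Il1b at 943 and 408 CPM against 5.77 to 26.6 CPM in the other 5. They also stood apart in Xist RNA, at 15.1 and 23.2 CPM against 8291 to 22542 CPM in the other 5. High inflammatory RNA and low Xist RNA thus fell in the same libraries, and what goes with each cannot be told apart. Xist RNA, at 8291 to 14318 CPM, and RNA of Y-linked genes such as Ddx3y were found together in libraries 21, 22 and 25. Values without each of these sets of libraries are given for the genes where they change the direction or the call. In bulk RNA, fewer cells of a type and less RNA per cell cannot be told apart.

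Some of these genes share sequence, and 50-base reads without strand cannot always be assigned to one of them. Tnfrsf22 and Tnfrsf23, decoy receptors for the TRAIL ligand in the mouse, lie side by side on the minus strand of chromosome 7 (143634806 to 143649661 and 143665809 to 143685872, GRCm38). In GENCODE M21 transcripts, 27.4% of the 50-base windows of Tnfrsf22 and 19.3% of those of Tnfrsf23 also occur in another gene, mostly in each other. The coding sequences share a run of 102 identical bases. The stretches below show the 20 bases before that run in lower case and its first 40 bases in capitals, since a read that lies wholly inside the run fits both genes.
Tnfrsf22: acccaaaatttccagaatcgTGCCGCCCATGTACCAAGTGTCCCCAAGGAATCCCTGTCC
Tnfrsf23: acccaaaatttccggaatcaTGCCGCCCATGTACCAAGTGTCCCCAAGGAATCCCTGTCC

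Tnfsf12, which encodes the ligand TWEAK, and Tnfsf13, which encodes APRIL, are neighbours on the minus strand of chromosome 11 (69686250 to 69695849 and 69682846 to 69685784, GRCm38). Tnfsfm13 is their read-through transcript (69682577 to 69696098), which joins the front of TWEAK to the receptor-binding part of APRIL. Of its 50-base windows, 71.0% also occur in another gene, against 46.8% for Tnfsf12 and 57.3% for Tnfsf13. The junction that sets the read-through apart is shown with 30 bases on either side, and below it the same place in each parent gene. Capitals in the Tnfsfm13 and Tnfsf13 lines mark the APRIL bases after the junction, and capitals in the Tnfsf12 line mark how TWEAK itself goes on.
Tnfsfm13: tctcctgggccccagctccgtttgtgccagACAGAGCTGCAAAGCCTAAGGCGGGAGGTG
Tnfsf12: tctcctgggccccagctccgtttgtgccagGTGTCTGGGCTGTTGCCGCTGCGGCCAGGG
Tnfsf13: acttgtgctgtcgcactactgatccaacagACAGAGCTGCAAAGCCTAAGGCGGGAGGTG
A read that lies wholly inside sequence shared with a parent gene cannot be assigned to one gene, so the split of counts among these 3 genes is uncertain.

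Between Hoxb8 and non-Hoxb8 microglia, none of the 22 tested genes differed past the threshold. The quasi-likelihood test of edgeR, adjusted by Benjamini-Hochberg across 11874 genes, called 0 of 22, against 0.0337% of all genes tested. At an unadjusted p below 0.05 the count was also 0 of 22, against 3.52% of all genes tested. DESeq2 called 0 of the 22 (0.203% of all genes) and limma-voom 0 (0.0% of all genes). With no filter on low counts edgeR called 0 of the 27 (0.0346% of all genes). The smallest unadjusted p among them in the edgeR test was 0.096, for Cd40, and Cd40 alone of the 22 lay below 0.05 with limma-voom (unadjusted p = 0.023, adjusted p = 1.0, against 2.0% of all genes that were higher at that level). Log2 fold changes of Hoxb8 over non-Hoxb8 ran from -1.03 to 2.21 with a median of 0.18 (13 above 0 and 9 below), beside a median of 0.00 over all genes tested. The median was 0.16 for the 15 receptors and 0.25 for the 7 ligands. Without Hoxb8 library 6 the median of the genes that passed the filter was -0.10. The precision was limited, with a median standard error of 0.58 against 0.39 over all genes tested. An adjusted p of 1.0 at this precision does not show equal levels.

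**Figure D1:**
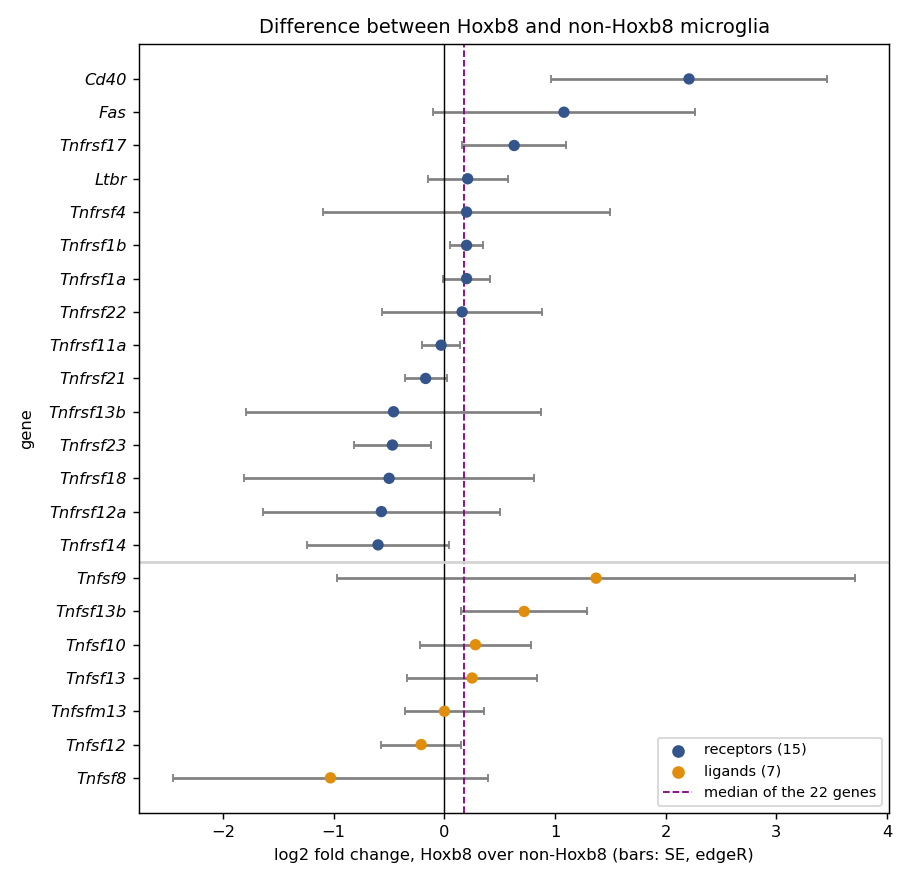
Log2 fold change of Hoxb8 over non-Hoxb8 microglia for the 22 superfamily genes that passed the filter on low counts, receptors above and ligands below, with bars for the standard error of the edgeR fit and a dashed line at their median of 0.18. Bars are short for the abundant receptors Tnfrsf1b, Tnfrsf1a, Tnfrsf11a and Tnfrsf21, and the bar of Tnfsf9 is the longest shown, from a log2 fold change of 1.37 with a standard error of 2.34.

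Per length, the receptors for TNF and the death-domain receptor Tnfrsf21 stood at the top of the family. Over all 7 libraries Tnfrsf21 averaged 144 CPM per kb of exon, Tnfrsf1b 101, Tnfsf9 50.6, Tnfrsf1a 47.3 and Tnfrsf11a 30.3 CPM per kb. Tnfsf12 (22.3), Tnfrsf17 (16.4), Tnfsfm13 (11.1) and Ltbr (9.62 CPM per kb) followed, and the other 18 genes averaged from 0.0845 to 5.85 CPM per kb. In that order the ranges over libraries of Tnfrsf21 (112 to 189 CPM per kb) and Tnfrsf1b (83.5 to 117) met, and those of Tnfrsf1a (35.0 to 59.2) and Tnfrsf11a (25.5 to 33.2) did not. From Tnfrsf11a down to Ltbr each gene's range overlapped that of the next. The place of Tnfsf9 has little meaning, since its libraries ran from 0.104 to 221 CPM per kb. By CPM per kb, Tnfrsf21 lay above 98.6% and Tnfrsf1b above 97.7% of the 11410 tested genes that have a length.

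**Figure D2:**
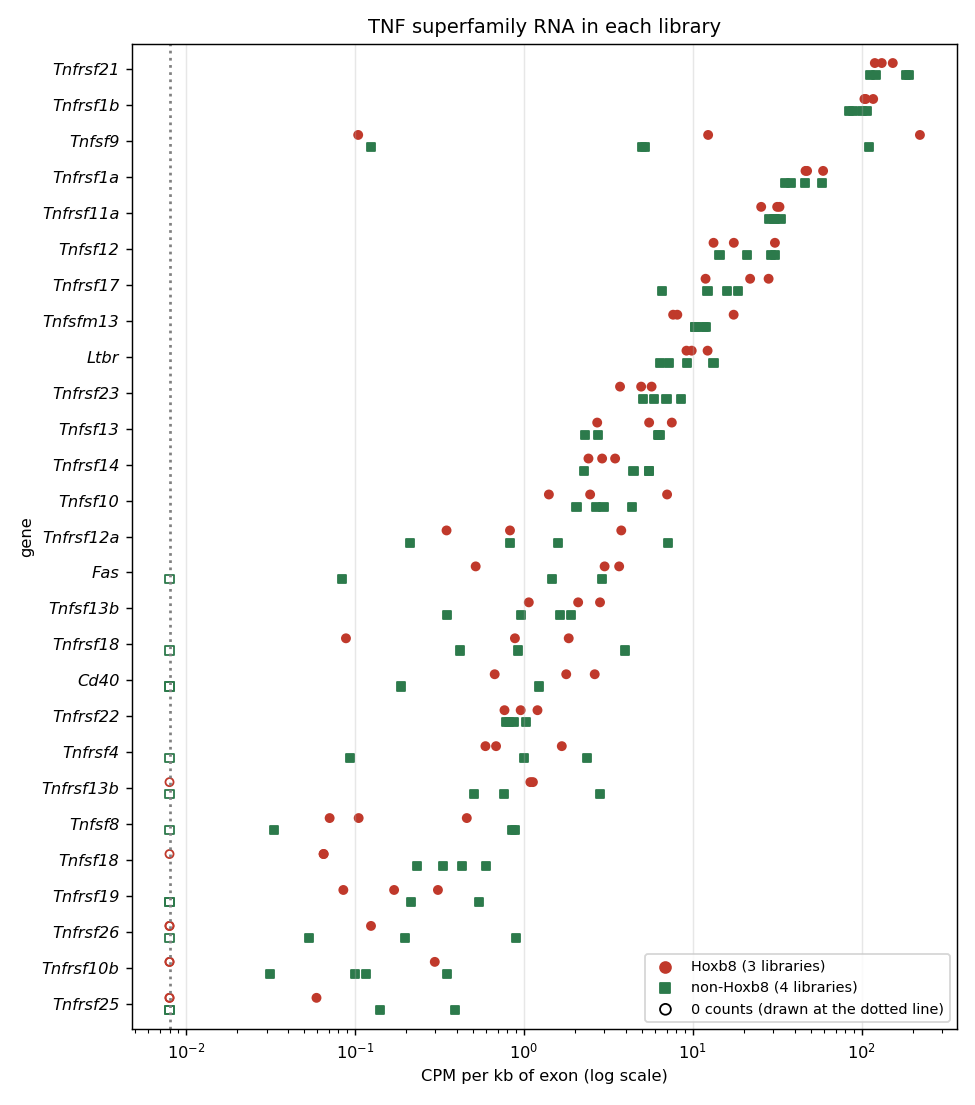
Level of each of the 27 superfamily genes in CPM per kb of exon on a log axis, genes ordered by their mean over 7 libraries, with red circles for the 3 Hoxb8 libraries, green squares for the 4 non-Hoxb8 libraries and open symbols at the dotted line for libraries at 0 counts. Tnfrsf21 and Tnfrsf1b lead at 144 and 101 CPM per kb with libraries close together, while Tnfsf9 spreads from 0.104 to 221 CPM per kb, with high and low libraries in both groups.

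The receptors of TNF itself were steady. Tnfrsf1b, the TNF receptor without a death domain that responds best to membrane-bound TNF, stood at 403, 446 and 396 CPM in Hoxb8 libraries 6, 14 and 22, against 339, 409, 382 and 319 CPM in non-Hoxb8 libraries 5, 13, 21 and 25. The Hoxb8 library of each adjacent pair of numbers was the higher, by 1.04- to 1.19-fold, and the groups overlapped. The log2 fold change was 0.20 ± 0.15 (SE, edgeR adjusted p = 1.0). Tnfrsf1a, the death-domain receptor for TNF found on most cells, stood at 153, 120.4 and 123 CPM in Hoxb8 libraries, against 151, 120.2, 90.8 and 98.2 CPM in non-Hoxb8 libraries. Libraries 6 and 5 were the highest of their groups, and the groups overlapped (log2 fold change 0.20 ± 0.21, edgeR adjusted p = 1.0). Over the 7 libraries Tnfrsf1b had a log2 range of 0.48, and 94.9% of all genes tested had a range at least as wide.

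Tnfrsf21, a death-domain receptor known as DR6, was the most abundant member per length. It stood at 627, 491 and 539.5 CPM in Hoxb8 libraries and at 750.1, 497, 459 and 779 CPM in non-Hoxb8 libraries. Non-Hoxb8 libraries 5 and 25 were the highest, library 13 lay within the Hoxb8 range and library 21 below it (log2 fold change -0.17 ± 0.19, edgeR adjusted p = 1.0). Tnfrsf11a, which encodes RANK, the receptor that drives osteoclast formation from myeloid precursors, stood at 195, 152 and 189 CPM in Hoxb8 libraries, against 199, 169, 183 and 180.3 CPM in non-Hoxb8 libraries. Its log2 range over the 7 libraries was 0.38, the narrowest of the 22 genes, and 97.7% of all genes tested had a range at least as wide. The log2 fold change of Tnfrsf11a was -0.03 ± 0.17 (edgeR adjusted p = 1.0). Ltbr, the receptor of membrane lymphotoxin that feeds the non-canonical NF-kB pathway, stood at 21.6, 28.8 and 23.2 CPM in Hoxb8 libraries and 31.2, 21.7, 17 and 15.1 CPM in non-Hoxb8 libraries, with overlap (log2 fold change 0.21 ± 0.36).

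Cd40 showed the largest log2 fold change among the 22 genes. CD40 is the receptor through which T cells bearing CD40 ligand activate antigen-presenting cells. It had 67, 45 and 17 counts in Hoxb8 libraries 6, 14 and 22 (8.95, 6.07 and 2.29 CPM), against 0, 33, 4 and 0 counts in non-Hoxb8 libraries 5, 13, 21 and 25 (0, 4.20, 0.641 and 0 CPM). Library 13 alone of the non-Hoxb8 libraries reached into the Hoxb8 range, and in each adjacent pair the Hoxb8 library was the higher. The log2 fold change was 2.21 ± 1.25 (SE, edgeR unadjusted p = 0.096, adjusted p = 1.0). Without library 13 the log2 fold change was 4.66 (edgeR unadjusted p = 0.0035, adjusted p = 0.89), and without libraries 13 and 14 it was 4.61 (edgeR unadjusted p = 0.010, adjusted p = 1.0). Both omissions take out the library that reached into the Hoxb8 range. The share of all genes with so small an unadjusted p in these fits is not given here. Leaving out 1 library, the value ran from 1.75 without library 6 (edgeR unadjusted p = 0.27) to that 4.66. Without libraries 21, 22 and 25 it was 1.83 (edgeR unadjusted p = 0.23). Cd40 was chosen for this detail after its values were seen.

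Most listed markers of border-associated macrophages and monocytes also averaged higher in the Hoxb8 libraries. The lists were chosen with earlier results of these data known, so their counts are not an independent test. The summed level of 7 markers of border-associated macrophages, Mrc1 and Lyve1 among them, was 203 to 790.2 CPM in Hoxb8 libraries and 31.9 to 191 CPM in non-Hoxb8 libraries. All 7 had log2 fold changes above 0. Between groups Lyve1 overlapped, at 22.1 to 141 CPM in Hoxb8 and 0.641 to 43.1 CPM in non-Hoxb8 libraries. Cd163 (7.95 to 37.4 and 1.12 to 9.96 CPM) and Pf4 (3.37 to 38.3 and 1.1 to 7.9 CPM) overlapped too. Of them, 6 lay at an edgeR unadjusted p below 0.05 (3.52% of all genes tested, either direction) and 0 passed after adjustment (0.0337%). For 8 monocyte markers the sum was 125 to 214 CPM in Hoxb8 libraries and 17.3 to 35.3 CPM in non-Hoxb8 libraries. Itga4 alone gave 36.2 to 109.6 and 4.71 to 11.2 CPM of these sums. At an edgeR unadjusted p below 0.05 lay 6 of 7 tested genes (3.52% of all genes tested, either direction). After adjustment 1, Itga4, passed (0.0337% of all genes tested). Plac8 overlapped between groups, at 1.74 to 5.53 CPM in Hoxb8 and 0 to 5.49 CPM in non-Hoxb8 libraries. Ace did as well, at 3.87 to 9.18 CPM in Hoxb8 and 0 to 3.98 CPM in non-Hoxb8 libraries. The sums of 6 dendritic cell markers overlapped, at 28.2 to 87.9 CPM in Hoxb8 and 14.1 to 33.1 CPM in non-Hoxb8 libraries. Of 5 tested dendritic cell markers 1 passed, Cd209a, which made up 54.9 CPM of the highest sum. The monocyte markers Spn and Treml4 were at 0 in every non-Hoxb8 library, and Ly6c2, a marker of classical monocytes, was at 0 in every Hoxb8 library. Their part in the Cd40 values was not tested.

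Fas, the death receptor that binds Fas ligand, had 8, 56 and 46 counts in Hoxb8 libraries (1.07, 7.56 and 6.20 CPM) and 22, 47, 0 and 1 counts in non-Hoxb8 libraries (3.02, 5.99, 0 and 0.172 CPM). The order of the groups differed between pairs, with library 6 below library 5 (log2 fold change 1.08 ± 1.18, edgeR adjusted p = 1.0). Without libraries 21, 22 and 25 the log2 fold change of Fas was -0.06.

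The measured receptor and ligand genes of the BAFF and APRIL system, known from B cell and plasma cell survival, showed no difference past the test. Tnfrsf13c, a further receptor gene of that system, is not among the genes described here. Tnfrsf17, which encodes BCMA, a receptor for both ligands, stood at 17.8, 22.9 and 9.70 CPM in Hoxb8 libraries and 5.36, 15, 13 and 9.96 CPM in non-Hoxb8 libraries. Libraries 14 and 6 were the highest of the 7 and library 22 lay inside the non-Hoxb8 range (log2 fold change 0.63 ± 0.47, edgeR adjusted p = 1.0). Tnfrsf13b, which encodes TACI, the other receptor they share, had 24, 0 and 23 counts in Hoxb8 libraries and 58, 17, 9 and 0 in non-Hoxb8 libraries (log2 fold change -0.46 ± 1.33). The ligand gene Tnfsf13b, which encodes BAFF, stood at 7.35, 14.4 and 19.4 CPM in Hoxb8 libraries, against 6.59, 13, 11.2 and 2.40 CPM in non-Hoxb8 libraries (log2 fold change 0.72 ± 0.57). In each adjacent pair Tnfsf13b was the higher in the Hoxb8 library, by 1.11- to 1.73-fold, and the groups overlapped. Of 12 lymphocyte markers, 4 were measured, and they summed to 20.2 to 53.9 CPM in Hoxb8 libraries and 2.08 to 31.9 CPM in non-Hoxb8 libraries. Cd79b, a B cell receptor chain, stood at 16.4 to 21.3 CPM in Hoxb8 libraries and 1.76 to 28 CPM in non-Hoxb8 libraries. Cd4 stood at 1.48 to 28.1 CPM in Hoxb8 and 0.321 to 4.94 CPM in non-Hoxb8 libraries, and Klrb1c at 0.267 to 1.62 and 0 to 0.137 CPM. Of 2 tested lymphocyte markers, 1 was higher at an edgeR unadjusted p below 0.05 (3.52% of all genes tested, either direction). After adjustment 0 passed (0.0337%). Their part in the Tnfrsf17 and Tnfrsf13b values was not tested. Cd8a, a marker of cytotoxic T cells, was at 0 to 2.83 CPM in Hoxb8 and 0 to 0.127 CPM in non-Hoxb8 libraries. The other 8 were not analysed here.

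Tnfsf13, the APRIL gene, stood at 12.3, 4.45 and 9.03 CPM in Hoxb8 libraries and 10.2, 10.4, 4.49 and 3.78 CPM in non-Hoxb8 libraries, with overlap (log2 fold change 0.25 ± 0.59). Tnfsf12, the TWEAK gene, stood at 46.4, 26.5 and 20.1 CPM in Hoxb8 libraries and 31.9, 21.8, 44.1 and 46.2 CPM in non-Hoxb8 libraries (log2 fold change -0.21 ± 0.36). Counts of the read-through Tnfsfm13 gave 39.0, 17.1 and 18.1 CPM in Hoxb8 libraries and 23.2, 22.9, 26.6 and 26.1 CPM in non-Hoxb8 libraries. Both groups of Tnfsfm13 averaged 24.7 CPM (SD 12.4 with n = 3 in Hoxb8, SD 1.92 with n = 4 in non-Hoxb8 libraries), and library 6 was the highest in all 3 genes. Tnfrsf12a, which encodes Fn14, the receptor of TWEAK, had 12, 54 and 5 counts in Hoxb8 libraries and 3, 108, 10 and 18 counts in non-Hoxb8 libraries. Its highest libraries were 13 and 14 (log2 fold change -0.57 ± 1.07).

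Of the TRAIL system, the ligand and the decoy receptors passed the filter and the signalling receptor did not. Tnfsf10, which encodes the death ligand TRAIL, stood at 37.1, 13 and 7.41 CPM in Hoxb8 libraries, against 14, 10.8, 22.9 and 15.6 CPM in non-Hoxb8 libraries. Library 6 was the highest of the 7 and library 22 the lowest, both of them Hoxb8 (log2 fold change 0.28 ± 0.50). Tnfrsf10b, the signalling TRAIL receptor of the mouse, had 0, 12 and 0 counts in Hoxb8 libraries and 4, 5, 12 and 1 in non-Hoxb8 libraries, too few for the test. Tnfrsf23 stood at 19.6, 14.7 and 22.6 CPM in Hoxb8 libraries and 33.8, 20.1, 27.7 and 23.5 CPM in non-Hoxb8 libraries. The Hoxb8 library was the lower in each adjacent pair, at 0.581 to 0.816 of its neighbour, while the groups overlapped (log2 fold change -0.47 ± 0.35, edgeR unadjusted p = 0.19, adjusted p = 1.0). Tnfrsf22 stood at 3.24 to 5.08 CPM in Hoxb8 libraries and 3.30 to 4.33 CPM in non-Hoxb8 libraries. Whether reads from the shared bases shown above were counted for either gene is not known. Tnfrsf26, next to Tnfrsf22 on chromosome 7, had 3 counts in Hoxb8 libraries together and 26 in non-Hoxb8 libraries together, 21 of which lay in library 5.

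Tnfsf9 varied most between libraries among the superfamily genes that were tested. It encodes the ligand of CD137, a costimulatory receptor of activated T cells. There were 119, 2115 and 1 counts in Hoxb8 libraries 6, 14 and 22 (15.9, 285 and 0.135 CPM), against 47, 1113, 1 and 39 counts in non-Hoxb8 libraries 5, 13, 21 and 25 (6.45, 142, 0.160 and 6.70 CPM). Libraries 14 and 13 were the highest and libraries 22 and 21 the lowest, so that both groups held high and low libraries. The log2 range of Tnfsf9 over the 7 libraries was 8.82 (on CPM + 0.5), and 4 of the 11874 genes had a wider one, among them Xist, Cxcl2 and Ptgs2.

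The log2 fold change of Tnfsf9 was 1.37 ± 2.34 (SE, edgeR adjusted p = 1.0). Without Hoxb8 library 14 it was -2.27, without non-Hoxb8 library 13 it was 4.49, and without both it was 0.84, each with an edgeR adjusted p of 0.98 or more. Deviations of libraries with adjacent numbers correlated at 0.18 to 0.28 across genes. Values of other pairs are not given here, so this cannot show that adjacent libraries share an animal. In the fit with adjacent library numbers as pairs, Tnfsf9 had a log2 fold change of 1.10 ± 0.31 (edgeR unadjusted p = 0.0012, adjusted p = 0.22). It was then the 1 member of 22 that was higher at an unadjusted p below 0.05 (3.01% of all genes tested with pairs), and 0 of 22 passed after adjustment (0.362% of all genes). The level in library 6 was 2.46 times that in library 5, the level in library 14 was 2.01 times that in library 13, and libraries 22 and 21 had 1 count each. Tnfsf9 lies on chromosome 17 (57105325 to 57107757, plus strand, GRCm38) and overlaps Gm11110 on the opposite strand, which shares 11.5% of its 50-base windows, so reads without strand leave part of its counts uncertain.

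Tnf, the founding ligand, falls outside the rule by its symbol but was high and low in the same libraries. It stood at 42.9, 700.2 and 4.31 CPM in Hoxb8 libraries 6, 14 and 22, against 32, 547, 4.49 and 50.2 CPM in non-Hoxb8 libraries 5, 13, 21 and 25. As for Tnfsf9, libraries 14 and 13 were the highest and libraries 22 and 21 the lowest (log2 fold change 0.65 ± 2.09, edgeR adjusted p = 1.0). Tnfaip3, the deubiquitinating enzyme A20 that is induced by NF-kB and restrains it, stood at 137, 1341 and 90.2 CPM in Hoxb8 libraries and 235, 1085, 76.8 and 211 CPM in non-Hoxb8 libraries. Nfkbia, the inhibitor IkB-alpha, stood at 55.7, 587 and 38.7 CPM in Hoxb8 libraries and 85.0, 288, 31.6 and 182 CPM in non-Hoxb8 libraries. Libraries 14 and 13 were again the highest for both, and libraries 22 and 21 the lowest of their groups. Tnfrsf1b was also highest in libraries 14 and 13, within a range of 319 to 446 CPM over the 7 libraries, and lowest in library 25. Tnfrsf1a was highest in libraries 6 and 5.

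**Figure D3:**
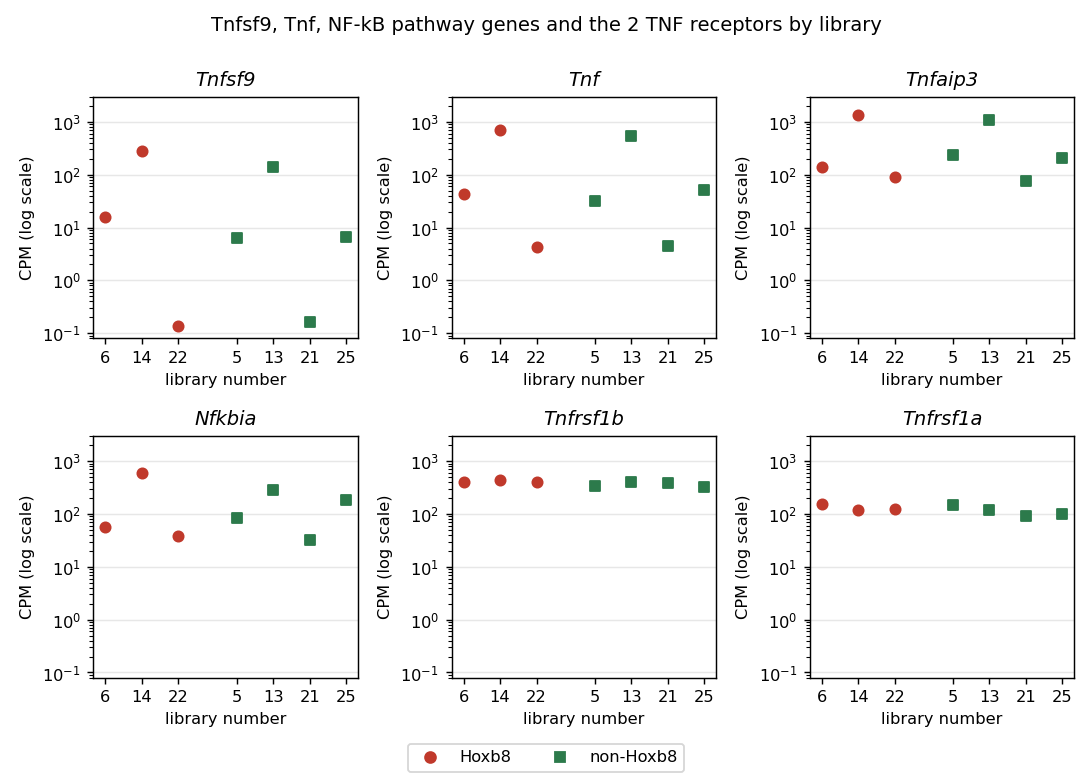
CPM on a common log axis in each library for the ligand genes Tnfsf9 and Tnf, the NF-kB inhibitors Tnfaip3 and Nfkbia, and the TNF receptor genes Tnfrsf1b and Tnfrsf1a, with 3 Hoxb8 libraries (red circles) left of 4 non-Hoxb8 libraries (green squares). Libraries 14 and 13 are highest for the first 4 genes (285 and 142 CPM for Tnfsf9, 700.2 and 547 CPM for Tnf), while both receptors stay nearly level.

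The remaining ligands were scarce. Tnfsf18, which encodes the ligand of GITR, was the 1 member of 27 whose groups did not overlap. It had 0, 1 and 1 counts in Hoxb8 libraries 6, 14 and 22 and 9, 7, 3 and 4 counts in non-Hoxb8 libraries 5, 13, 21 and 25. Scaled to library size, the summed counts of 2 in Hoxb8 and 23 in non-Hoxb8 libraries gave a ratio of 0.106 (exact 95% interval 0.0121 to 0.429, reads taken as independent). The interval leaves out PCR duplication and the spread between libraries. For Tnfrsf26 it was 0.0272 to 0.459, though 21 of 26 non-Hoxb8 counts lay in library 5. It was 0.00309 to 0.977 for Tnfrsf25, 0.300 to 1.40 for Tnfrsf10b and 0.552 to 2.02 for Tnfrsf19. Among all genes with a count, 2.14% were lower and 2.52% higher in Hoxb8 libraries without overlap. Tnfsf18 did not reach the filter on low counts, and with all genes in the edgeR fit its unadjusted p was 0.12. Tnfsf8, which encodes CD30 ligand, had 3, 13 and 2 counts in Hoxb8 libraries and 0, 1, 21 and 19 counts in non-Hoxb8 libraries, with libraries 21 and 25 the highest (log2 fold change -1.03 ± 1.42, and 0.95 ± 1.95 in the fit with pairs).

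The remaining receptors, several of them best known from T cells, were also scarce. Tnfrsf14, which encodes HVEM, the partner of the ligand LIGHT and of the inhibitory receptor BTLA, stood at 3.47, 4.99 and 4.18 CPM in Hoxb8 libraries and 7.96, 7.90, 6.41 and 3.26 CPM in non-Hoxb8 libraries. The Hoxb8 library was the lower in each adjacent pair (0.436 to 0.651 of its neighbour), library 25 was the lowest of all, and the log2 fold change was -0.60 ± 0.64 (edgeR unadjusted p = 0.37). Tnfrsf18, which encodes GITR, ran from 1 to 21 counts in Hoxb8 libraries and from 0 to 44 in non-Hoxb8 libraries. Tnfrsf4, which encodes OX40, stood at 0.809 to 2.29 CPM in Hoxb8 libraries and 0 to 3.21 CPM in non-Hoxb8 libraries. Their log2 fold changes were -0.50 ± 1.31 and 0.20 ± 1.30. Tnfrsf25, the death-domain receptor DR3, had 1 count in Hoxb8 libraries together and 9 in non-Hoxb8 libraries together, and Tnfrsf19, known as TROY, had 20 and 23.

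**Figure D4:**
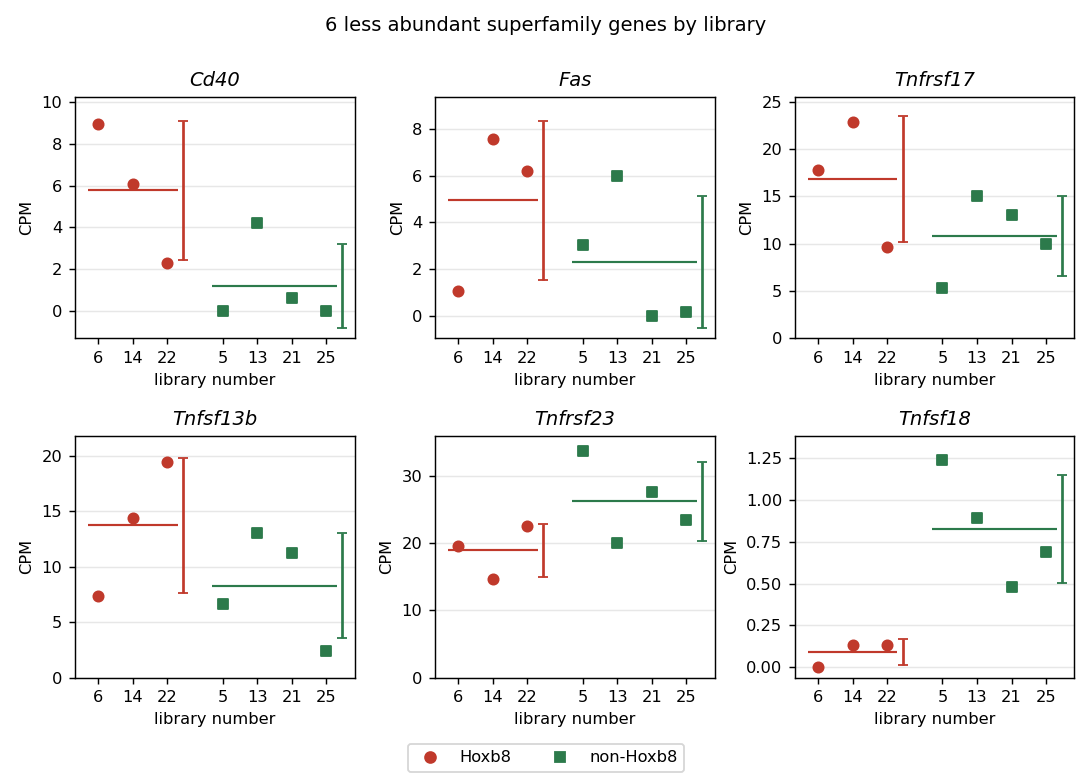
CPM in each library for Cd40, Fas, Tnfrsf17, Tnfsf13b, Tnfrsf23 and Tnfsf18, with 3 Hoxb8 libraries (red circles) left of 4 non-Hoxb8 libraries (green squares), horizontal lines at group means and bars of 1 SD on either side. Tnfsf18 alone shows no overlap, at 0 to 0.135 CPM in Hoxb8 and 0.481 to 1.24 CPM in non-Hoxb8 libraries, and library 13 is the one non-Hoxb8 library whose Cd40 level (4.20 CPM) lies within the Hoxb8 range.

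The signalling genes downstream of these receptors showed no difference past the test either. A list of 49 adaptors, ubiquitin enzymes, caspases and regulators of cell death, NF-kB components and shedding enzymes had 47 tested genes. Of these, 0 passed edgeR after adjustment (0.0337% of all genes tested), DESeq2 called 0 (0.203%) and limma-voom 0 (0.0%). At an edgeR unadjusted p below 0.05, 1 of the 47 was lower, beside 1.57% of all genes tested. The median log2 fold change over the 47 genes was 0.01, with 24 above 0. By group the medians were -0.11 for 16 adaptors and ubiquitin enzymes, -0.01 for 8 death genes, 0.09 for 18 NF-kB genes and 0.14 for 5 shedding genes, beside 0.00 over all genes tested. The single gene was Traf3ip2, an adaptor of the interleukin-17 receptor, at 6.01, 2.02 and 5.39 CPM in Hoxb8 libraries and 17.2, 4.71, 15.7 and 13.2 CPM in non-Hoxb8 libraries. Library 13 alone of the non-Hoxb8 libraries lay in the Hoxb8 range (log2 fold change -1.50 ± 0.60, edgeR unadjusted p = 0.024, adjusted p = 1.0). In the fit with pairs, 0 of the 47 genes passed edgeR after adjustment (0.362% of all genes tested) and 2 lay below an unadjusted 0.05. Of all genes tested with pairs, 3.01% were higher at that level, and the share that was lower is not given here. The 2 genes were Traf3ip2 again, lower (edgeR unadjusted p = 0.020, adjusted p = 0.79), and Timp3, an inhibitor of shedding enzymes, higher. So few genes are given as description and not as a difference of the list. Timp3 stood at 4.94, 10.9 and 8.49 CPM in Hoxb8 libraries and 1.65, 3.44, 0.321 and 21 CPM in non-Hoxb8 libraries, where the unpaired library 25 was the highest. Its log2 fold change was 2.38 ± 0.75 with pairs (edgeR unadjusted p = 0.0036, adjusted p = 0.41) and 0.31 ± 0.98 without.

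Casp8, the caspase that death receptors activate, averaged 375 CPM in Hoxb8 and 389 CPM in non-Hoxb8 libraries, and its brake Cflar averaged 202 and 229.9 CPM. Adam17, the enzyme that sheds TNF and its receptors, averaged 311 CPM in Hoxb8 and 319 CPM in non-Hoxb8 libraries. Ripk3, a kinase of necroptosis, averaged 4.74 and 6.71 CPM. Mlkl, the pore-forming protein of that death pathway, had too few counts for the test, with 17.7 CPM in library 5 and at most 0.637 CPM in the others. Of 12 further superfamily genes whose symbols the rule does not catch, 5 were measured and the other 7, Lta and Cd40lg among them, were not analysed here. Besides Tnf, Cd27 stood at 2.41 to 3.91 CPM in Hoxb8 and 2.06 to 3.69 CPM in non-Hoxb8 libraries, Relt had a log2 fold change of -1.08 ± 1.04, and Ltb (0 to 1.89 and 0 to 0.637 CPM) and Fasl (0 to 0.270 and 0 CPM) were too low for the test. Of the 3 that were tested, 0 passed edgeR.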

How the data were processed

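RNA-seq was done on microglia sorted by tdTomato and GFP after capture with anti-CD11b beads. Per the labels' protocols, libraries were made with a Clontech low-input kit, read as 50 bp single ends without strand, and mapped by the authors with STAR 2.4.1c against GRCm38 and the M5 release of GENCODE. FeatureCounts, Subread and DESeq2 stand in the submitters' processing notes too. For each gene symbol the deposited table holds raw counts, and no source used here states the filter that left 14616 rows. Of these rows, 22 carry date numbers in place of names and were left out (median 0.133% of counts per library).

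Counts of 14594 genes were tested with edgeR 4.0.16 (TMM, filterByExpr, robust quasi-likelihood F-test, no animal term) in R 4.3.3, with Benjamini-Hochberg adjustment at 0.05. Standard errors were taken as the absolute log2 fold change over the root of F. Alternatives were DESeq2 1.42.0, limma-voom (limma 3.58.1), DESeq2 size factors, no filter, pairs of adjacent library numbers, and libraries left out. Deviations of the pairs 5 and 6, 13 and 14, and 21 and 22 from their group means correlated at 0.18, 0.28 and 0.19 across genes, each over the set limit of 0.1. Correlations of other pairs are not given, so these values cannot show that pairs share an animal. The pairing rests on library numbers, not on a statement in the labels. Library 25 has no partner.

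Genes, lists and tests were chosen with earlier results of these data known. Values per library were to be given for members past a test, at an unadjusted p below 0.05, without overlap or among the 8 highest per kb, and other members are described so that each is accounted for. GENCODE M21, also on GRCm38, gave lengths, positions and sequences. Counts are PCR reads without molecular identifiers. The intervals treat reads as independent, so they leave out PCR duplication and the spread between libraries.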

Additional observations from a re-analysis of the deposited data

Results flagged for a closer look

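Of 78 genes searched (the tested ones among members, superfamily genes outside the rule and signalling genes, with 6 companions), 6 had a non-Hoxb8 library far from the other 3 on log2(CPM + 0.5), where chance gives about 3.9. None of the 6 was a member. Il1b and Xist are companions, chosen with earlier results of these data known, so the count is not a fair measure against chance. The values are the gap to the nearest library as a share of the group's range. Il1b (0.852) and Nfkbie (0.848) were highest in library 13, and Xist (0.858) was lowest there. Traf6 (0.899) was highest in library 5, in which Cyld (0.904) and Traf3 (0.832) were lowest. Traf6 and Traf3 encode adaptors, Cyld a deubiquitinating enzyme and Nfkbie an NF-kB inhibitor.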

How the results depend on the processing

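Of the superfamily genes, the signalling list and the superfamily genes outside the rule, 0 of those that had an adjusted p passed under the 14 alternatives (DESeq2 gave none for Tnf), and the smallest adjusted p of a member was 0.22 (Tnfsf9 with the replicate block). The number of genes called higher among all genes, 4, was 20 with DESeq2, which also called 4 lower where edgeR called 0, 0 with limma-voom, 43 with the replicate block, 2 without libraries 13 and 14, 0 without libraries 21, 22 and 25, and from 0 to 6 leaving out 1 library (0 without non-Hoxb8 library 5, 2 without Hoxb8 library 14). At an unadjusted p below 0.05, 1 member was higher with limma-voom (Cd40), with the replicate block (Tnfsf9), without libraries 13 and 14 (Cd40) and without non-Hoxb8 library 13 (Cd40), so the count ran from 0 to 1 leaving out 1 library. For the fits with libraries left out, the share of all genes at that level is not given here. Their counts are description only. The members' median of 0.18 was 0.01 without the filter on low counts, which adds the 5 scarce members, 0.01 without libraries 21, 22 and 25, and from -0.10 to 0.22 leaving out 1 library. The causes of these shifts were not tested.

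Tnfrsf4 did not pass the filter on low counts in 5 of the alternatives and Tnfsf8 in 3. Of the 300 remaining values of single members, 275 kept their direction and 25 changed sign. Without libraries 21, 22 and 25 the log2 fold change was -0.06 for Fas, -0.07 for Ltbr, 0.44 for Tnfsf12 and -0.30 for Tnfsf13, and without libraries 13 and 14 it was 0.03 for Tnfrsf11a. Limma-voom gave 0.26 for Tnfsf8 and -0.09 for Tnfsfm13, and the replicate block 0.95 and -0.08. Leaving out 1 library, values ran from -0.10 to 0.07 for Tnfrsf11a, -2.03 to 0.91 for Tnfrsf12a, -0.90 to 0.78 for Tnfrsf13b, -1.43 to 1.02 for Tnfrsf18, -0.02 to 0.31 for Tnfrsf22, -0.21 to 0.45 for Tnfrsf4 (in the 3 omissions where it passed the filter), -0.64 to 0.66 for Tnfsf10, -0.63 to 0.02 for Tnfsf12, -0.10 to 0.56 for Tnfsf13, -2.27 to 4.49 for Tnfsf9 and -0.49 to 0.21 for Tnfsfm13. Depth limits the members with few counts.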
